A study of Loxodonta africana with 12 samples.

Results

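Autophagy genes encode the machinery by which a cell wraps its own contents in a double membrane, the autophagosome, and delivers them to the lysosome for breakdown. Of the 16406 gene rows of the deposited tables, 39 were taken as autophagy genes by symbol. The symbol was either ATG followed by a digit or a name on a given list of core members. The symbols MAP1LC3B, RB1CC1 and AMBRA1 of that list were not analysed here. RNA came from blood of the African elephant (Loxodonta africana), in 3 libraries for each of 4 groups: cells irradiated with 2 Gy and taken at 24 h, untreated cells at 24 h, cells irradiated with 2 Gy and taken at 5 h, and untreated cells at 5 h. The study's stated purpose was to find genes that differ between irradiated and untreated cells. The labels do not say whether replicates are separate animals, draws or cultures, so the p-values here gauge only how far these libraries vary, and that variation may be technical.

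The process begins with the ULK1 kinase complex, which activates a lipid kinase complex of PIK3C3, PIK3R4, BECN1 and ATG14 on the membrane that will form the autophagosome. The lipid PI3P made there draws in the WIPI proteins, while ATG9A vesicles and the lipid transfer proteins ATG2A and ATG2B supply membrane. A ubiquitin-like conjugation machinery (ATG3, ATG5, ATG7, ATG10, ATG12 and ATG16L1, with the ATG4 proteases) then attaches ATG8-family proteins such as GABARAP to the membrane, and cargo receptors such as SQSTM1 (also called p62) tie cargo to them. In mammals DRAM1 is known as a target of p53, the transcription factor that DNA damage activates.

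Library totals were 18022475 to 23805619 counts in irradiated and 22924260 to 37356501 counts in untreated libraries at 24 h, and 31129422 to 38138163 counts in irradiated and 31059389 to 35964159 counts in untreated libraries at 5 h. MDM2, a p53 target used as a check of the labels, was at 776 to 846 CPM (counts scaled to library size) in irradiated and 120 to 134 CPM in untreated libraries at 24 h, and at 1040 to 1340 CPM in irradiated and 176 to 198 CPM in untreated libraries at 5 h, so every irradiated library lay above every untreated one. CDKN1A, another p53 target, was at 317 to 433 CPM in irradiated and 48.5 to 74.7 CPM in untreated libraries at 24 h, and at 535 to 568 CPM in irradiated and 170 to 253 CPM in untreated libraries at 5 h, also without overlap. Summed over 9 B cell markers, the level was 58.8 to 78.3 CPM in irradiated and 398 to 488 CPM in untreated libraries at 24 h, and 186 to 244 CPM in irradiated and 294 to 357 CPM in untreated libraries at 5 h. Over 5 monocyte and macrophage markers it was 3030 to 3560 CPM in irradiated and 2140 to 2670 CPM in untreated libraries at 24 h. The other lists at 24 h were at 407 to 520 CPM in irradiated and 668 to 719 CPM in untreated libraries for 8 T cell markers, 148 to 219 and 385 to 443 CPM for 6 NK and cytotoxic cell markers, 45.1 to 125 and 30.4 to 47.7 CPM for 7 neutrophil markers, 102 to 132 and 47.6 to 63.0 CPM for 5 platelet markers, and 5.95 to 19.6 and 3.35 to 9.01 CPM for 3 erythroid markers, in the same order of groups. No marker with a row was at 0 in a whole group. The part of these shifts in the results that follow was not tested, and fewer cells of a type cannot be told apart from less RNA per cell.

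Per length, SQSTM1 was the most abundant autophagy gene in all 4 groups. Its mean FPKM, the deposited value scaled to the length of the gene model and to sequencing depth, was 981 ± 65.1 in irradiated and 778 ± 81.4 in untreated cells at 24 h, and 968 ± 125 in irradiated and 811 ± 115 in untreated cells at 5 h (SD, n = 3 each). SQSTM1 took 19.7 to 30.4% of all counts on the 39 genes, which together held 0.458 to 0.618% of a library's counts. Below it came DRAM2, the cargo receptors OPTN and TAX1BP1, the endoplasmic reticulum protein VMP1, and DRAM1. DRAM1 held rank 2 of 39 in both 24 h groups and rank 6 in both 5 h groups, with 441 ± 69.7 and 304 ± 60.6 FPKM in irradiated and untreated cells at 24 h and 187 ± 13.5 and 162 ± 21.2 FPKM at 5 h. The lowest levels belonged to ATG10, an E2-like enzyme that conjugates ATG12 to ATG5, at rank 38 in all groups, and to ATG9B, a paralog of ATG9A, at rank 39. GABARAP values are uncertain, because its row has no intron: the exon length of 354 bases equals the span. The rows of ULK1, ATG101 and ATG16L1 overlap another gene on the same strand (MMP17, GRASP, and 2 copies of SCARNA6), so their counts could be shared with it.

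**Figure D1:**
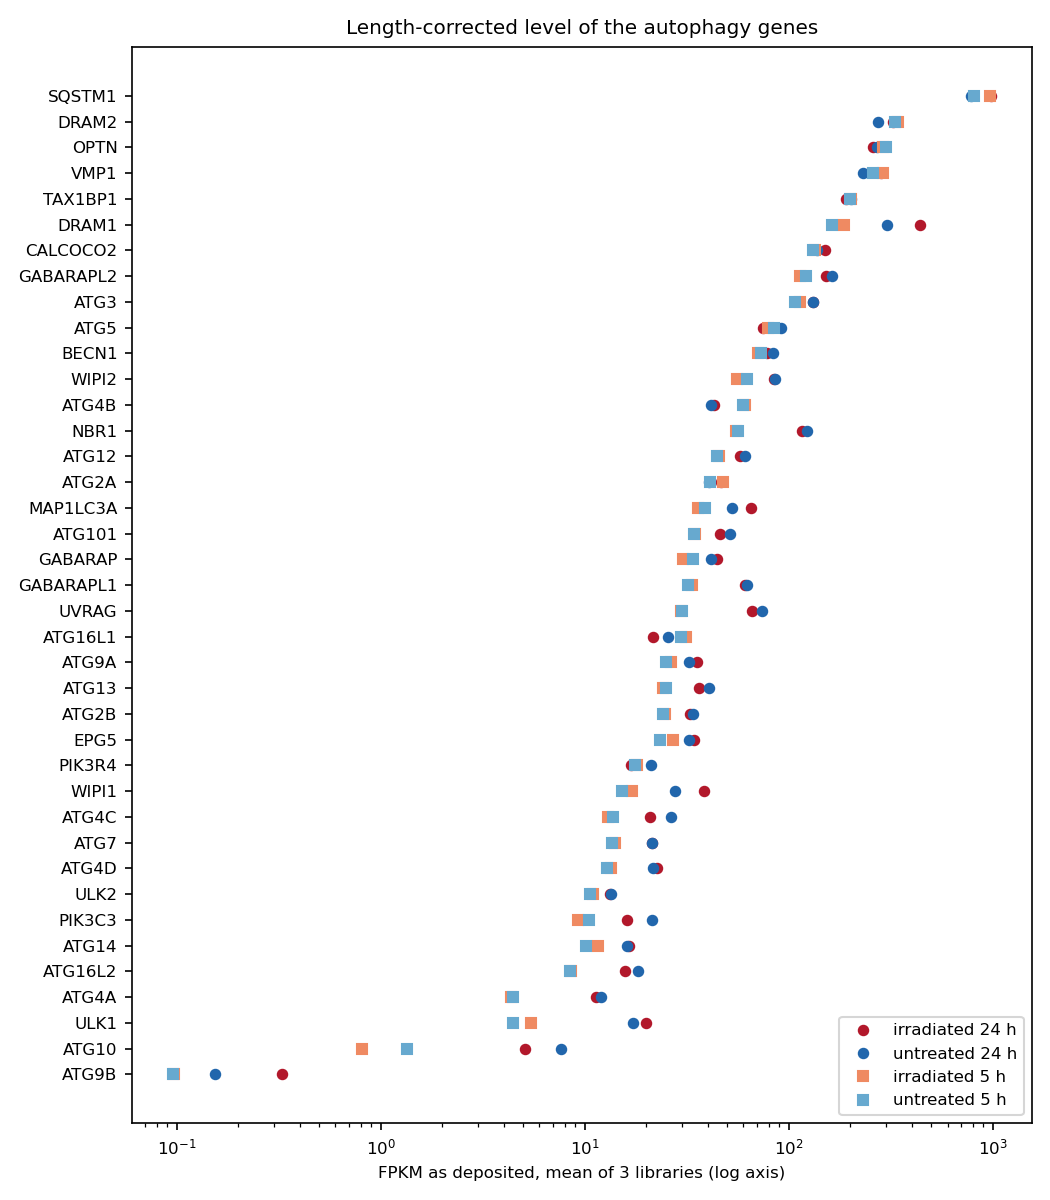
Length-corrected level of the 39 autophagy genes, in FPKM on a log axis, with 1 point for the mean of 3 libraries in each of the 4 groups. SQSTM1 lies above all others in each group (778 to 981 FPKM), ATG10 and ATG9B lie below them, and hidden points coincide with those drawn over them; genes are to be compared within a group, since FPKM was not rescaled between times.

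At 24 h, irradiated and untreated cells differed little in their autophagy genes. WIPI1, which binds PI3P on the forming autophagosome, rose 1.47-fold, and PIK3C3, the catalytic subunit of the lipid kinase that makes PI3P, fell to 0.792 of its untreated level. They were the only calls among 39 genes tested by edgeR, 1 higher and 1 lower, against 6.73% of all 14373 genes by the quasi-likelihood test at an adjusted p of 0.05 (1.8% higher and 4.94% lower). At an unadjusted p below 0.05 there were 7 autophagy genes, 4 higher and 3 lower, and 21.5% of all genes (7.32% and 14.2%). DESeq2 called 5, 3 higher (WIPI1, VMP1 and DRAM1) and 2 lower (PIK3C3 and PIK3R4), and 11.9% of all genes (4.22% and 7.72%). With replicate numbers as a block WIPI1 alone was called, and 4.92% of all genes. Same-numbered libraries at 24 h did not all deviate together from their group means (correlations of 0.12, -0.4 and 0.65). The block at 24 h is therefore not read as a fit of pairs. The median log2 fold change was 0.05 over the autophagy genes and 0.01 over all genes. A log2 fold change within 0.5 of 0 was found for 36 of the 39 genes, or 92.3%, and for 75.6% of all genes. The standard error of the log2 fold change had a median of 0.112 over the 39 genes, which bounds what could be seen with 3 libraries a group.

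WIPI1 (ENSLAFG00000000372, scaffold 49, 13993085 to 14026657, plus strand of the L_africana_Jul_2009 build) had 45.2, 42.6 and 50.4 CPM in irradiated libraries at 24 h, against 30.1, 30.0 and 33.3 CPM in untreated libraries. All irradiated libraries lay above all untreated ones. The log2 fold change was 0.55 ± 0.093 (SE), with an adjusted p of 0.017 by edgeR and 2.1e-05 by DESeq2. The call was lost when irradiated replicate 2 or 3 or any 1 of the 3 untreated libraries was left out (adjusted p 0.055 to 0.072), and the log2 fold change then stayed between 0.48 and 0.60. Groups that do not overlap were seen for 7 of the 39 genes, or 17.9%, with 3 higher and 4 lower, and for 26.2% of all genes tested (9.42% higher and 16.8% lower).

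PIK3C3 (ENSLAFG00000016786, scaffold 4, 57577929 to 57717202, minus strand) had 41.0, 41.1 and 39.7 CPM in irradiated and 49.1, 51.4 and 52.3 CPM in untreated libraries at 24 h. Each group was tight and the groups did not overlap. The log2 fold change was -0.34 ± 0.077, with an adjusted p of 0.048 by edgeR and 0.0064 by DESeq2. It failed to pass when each of the 6 libraries in turn was left out (adjusted p 0.062 to 0.21), with DESeq2's size factors (0.057), and under either other filter on low counts (0.052 with none and 0.05 with the stricter one). PIK3C3 also failed with the replicate block (edgeR adjusted p = 0.12), and passed in one fit over 12 libraries (edgeR adjusted p = 0.022).

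The other subunits of the lipid kinase complex gave no call at 24 h. PIK3R4, its regulatory subunit, had 60.0, 60.9 and 62.7 CPM in irradiated and 70.7, 74.1 and 71.8 CPM in untreated libraries. The groups did not overlap, and the log2 fold change of PIK3R4 was -0.25 ± 0.076 (adjusted p = 0.11 by edgeR and 0.046 by DESeq2). BECN1, the scaffold subunit, had 103, 86.3 and 92.5 CPM in irradiated and 84.1, 106 and 92.6 CPM in untreated libraries, with overlapping groups and a log2 fold change of -0.01 ± 0.111 (edgeR adjusted p = 0.96). ATG14, which directs the complex to autophagy, had 21.9, 22.2 and 21.2 CPM in irradiated and 17.1, 22.0 and 21.5 CPM in untreated libraries, also overlapping (log2 fold change 0.10 ± 0.112, edgeR adjusted p = 0.66). UVRAG, which takes the place of ATG14 in a second form of the complex, had a log2 fold change of -0.10 ± 0.079 (edgeR adjusted p = 0.54).

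All 7 genes of membrane supply and PI3P binding had a positive log2 fold change at 24 h, from 0.02 for ATG2B to 1.20 for ATG9B, against 51.5% of all genes, and only WIPI1 was called by edgeR. The sign did not hold for 3 of the 7. ATG2B turned to -0.01 without a filter on low counts, and to -0.05, -0.03 and -0.01 without irradiated replicate 2, irradiated replicate 3 or untreated replicate 2. WIPI2 turned to -0.09 without irradiated replicate 1 and to -0.01 without untreated replicate 1, and ATG2A to -0.08 without irradiated replicate 3. VMP1, which works where the autophagosome grows out of the endoplasmic reticulum, had 297, 302 and 327 CPM in irradiated and 224, 233 and 251 CPM in untreated libraries. Its groups did not overlap, and it missed the threshold by edgeR (log2 fold change 0.38 ± 0.089, adjusted p = 0.051). The call was made in edgeR with DESeq2's size factors (0.043) and with the stricter filter (0.031), and by DESeq2 (0.00016). It was not made in edgeR without a filter (0.099), with the replicate block (0.11) or in one fit over 12 libraries (0.056). Nor was it made with any 1 library left out (edgeR adjusted p 0.062 to 0.2). ATG9A, the scramblase of the ATG9 vesicles, had 69.7, 81.0 and 89.2 CPM in irradiated and 62.9, 69.3 and 75.1 CPM in untreated libraries, which overlap (log2 fold change 0.20 ± 0.113, edgeR adjusted p = 0.36). ATG2B had 161, 198 and 197 CPM in irradiated and 176, 173 and 194 CPM in untreated libraries, with no separation of the groups (log2 fold change 0.02 ± 0.112, edgeR adjusted p = 0.93). WIPI2, the relative of WIPI1 that recruits ATG16L1, had a log2 fold change of 0.05 ± 0.147 (edgeR adjusted p = 0.87). For ATG9B, at 0.343 to 0.671 CPM in irradiated and 0.0867 to 0.406 CPM in untreated libraries, counts were too low for a reading (SE 0.645, edgeR adjusted p = 0.34).

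DRAM1, a membrane protein of the lysosome (ENSLAFG00000004688, scaffold 2, 97330551 to 97381444, plus strand), had 337, 246 and 256 CPM in irradiated and 153, 236 and 158 CPM in untreated libraries at 24 h. The groups just failed to overlap, since untreated replicate 2 stood near the irradiated libraries. The log2 fold change of 0.61 ± 0.197 did not pass edgeR's test on the 6 libraries at 24 h (adjusted p = 0.12), and passed it in one fit over all 12 libraries (0.043) and passed DESeq2's (0.035). Its relative DRAM2 had a log2 fold change of 0.33 ± 0.180 (edgeR adjusted p = 0.35), and EPG5, which tethers autophagosomes to lysosomes, had 250, 223 and 232 CPM in irradiated and 186, 234 and 209 CPM in untreated libraries, overlapping (0.16 ± 0.104, edgeR adjusted p = 0.45). Among cargo receptors, SQSTM1 had 1400, 1150 and 1390 CPM in irradiated and 819, 1160 and 979 CPM in untreated libraries. Irradiated replicate 2 lay just below untreated replicate 2, so the groups overlapped (log2 fold change 0.41 ± 0.141, adjusted p = 0.15 by edgeR and 0.052 by DESeq2). The other 4 receptors (CALCOCO2, NBR1, OPTN and TAX1BP1) had log2 fold changes of 0.00 to 0.20, none called. OPTN had 492, 366 and 380 CPM in irradiated and 369, 468 and 380 CPM in untreated libraries, with overlapping groups (0.02 ± 0.149, edgeR adjusted p = 0.96).

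No gene of the initiation complex, the conjugation machinery or the ATG8 family was called at 24 h. ULK1, the kinase that starts the process, had 37.9, 54.1 and 76.4 CPM in irradiated and 34.6, 40.3 and 63.4 CPM in untreated libraries. Replicate 3 was the highest in both groups, and the spread within groups exceeded the difference between them (log2 fold change 0.27 ± 0.294, edgeR adjusted p = 0.65). ATG2A, also highest in replicate 3 of both groups, had 155, 219 and 339 CPM in irradiated and 160, 156 and 270 CPM in untreated libraries (0.27 ± 0.315, edgeR adjusted p = 0.67). ATG13, the adaptor of ULK1, had 58.5, 49.8 and 52.3 CPM in irradiated and 52.3, 59.9 and 56.4 CPM in untreated libraries (-0.08 ± 0.095, edgeR adjusted p = 0.68), with no separation of the groups.

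Within the conjugation machinery the 11 log2 fold changes at 24 h lay between -0.49 and 0.14, with a median of 0.00. ATG7, the E1-like enzyme, had 41.3, 36.8 and 43.1 CPM in irradiated and 33.9, 41.4 and 39.8 CPM in untreated libraries, overlapping (log2 fold change 0.07 ± 0.100, edgeR adjusted p = 0.75). ATG5 had 61.9, 53.3 and 51.4 CPM in irradiated and 61.0, 69.4 and 61.5 CPM in untreated libraries (-0.21 ± 0.106, edgeR adjusted p = 0.30), and only irradiated replicate 1 reached the untreated range. ATG12, the ubiquitin-like protein joined to ATG5, had 22.6, 20.3 and 21.7 CPM in irradiated and 20, 23.4 and 20.8 CPM in untreated libraries (0.00 ± 0.095, edgeR adjusted p = 1.0), and ATG16L1, which binds that pair, had 34.1, 35.2 and 39.2 CPM in irradiated and 37.7, 37.8 and 45.1 CPM in untreated libraries (-0.16 ± 0.103, edgeR adjusted p = 0.42). Both sets of libraries overlapped. ATG10, the least abundant gene of the machinery, had 3.36, 2.95 and 2.44 CPM in irradiated and 3.78, 4.42 and 4.09 CPM in untreated libraries, without overlap (-0.49 ± 0.182, edgeR adjusted p = 0.17). GABARAPL1, of the ATG8 family, had 19.7, 17.5 and 21.8 CPM in irradiated and 18.5, 19.4 and 18.7 CPM in untreated libraries, with no separation (0.05 ± 0.101, edgeR adjusted p = 0.82). MAP1LC3A, the LC3 gene measured here, had 17.6, 18.3 and 27.3 CPM in irradiated and 12.6, 16.1 and 19 CPM in untreated libraries, overlapping (0.39 ± 0.203, edgeR adjusted p = 0.32).

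**Figure D2:**
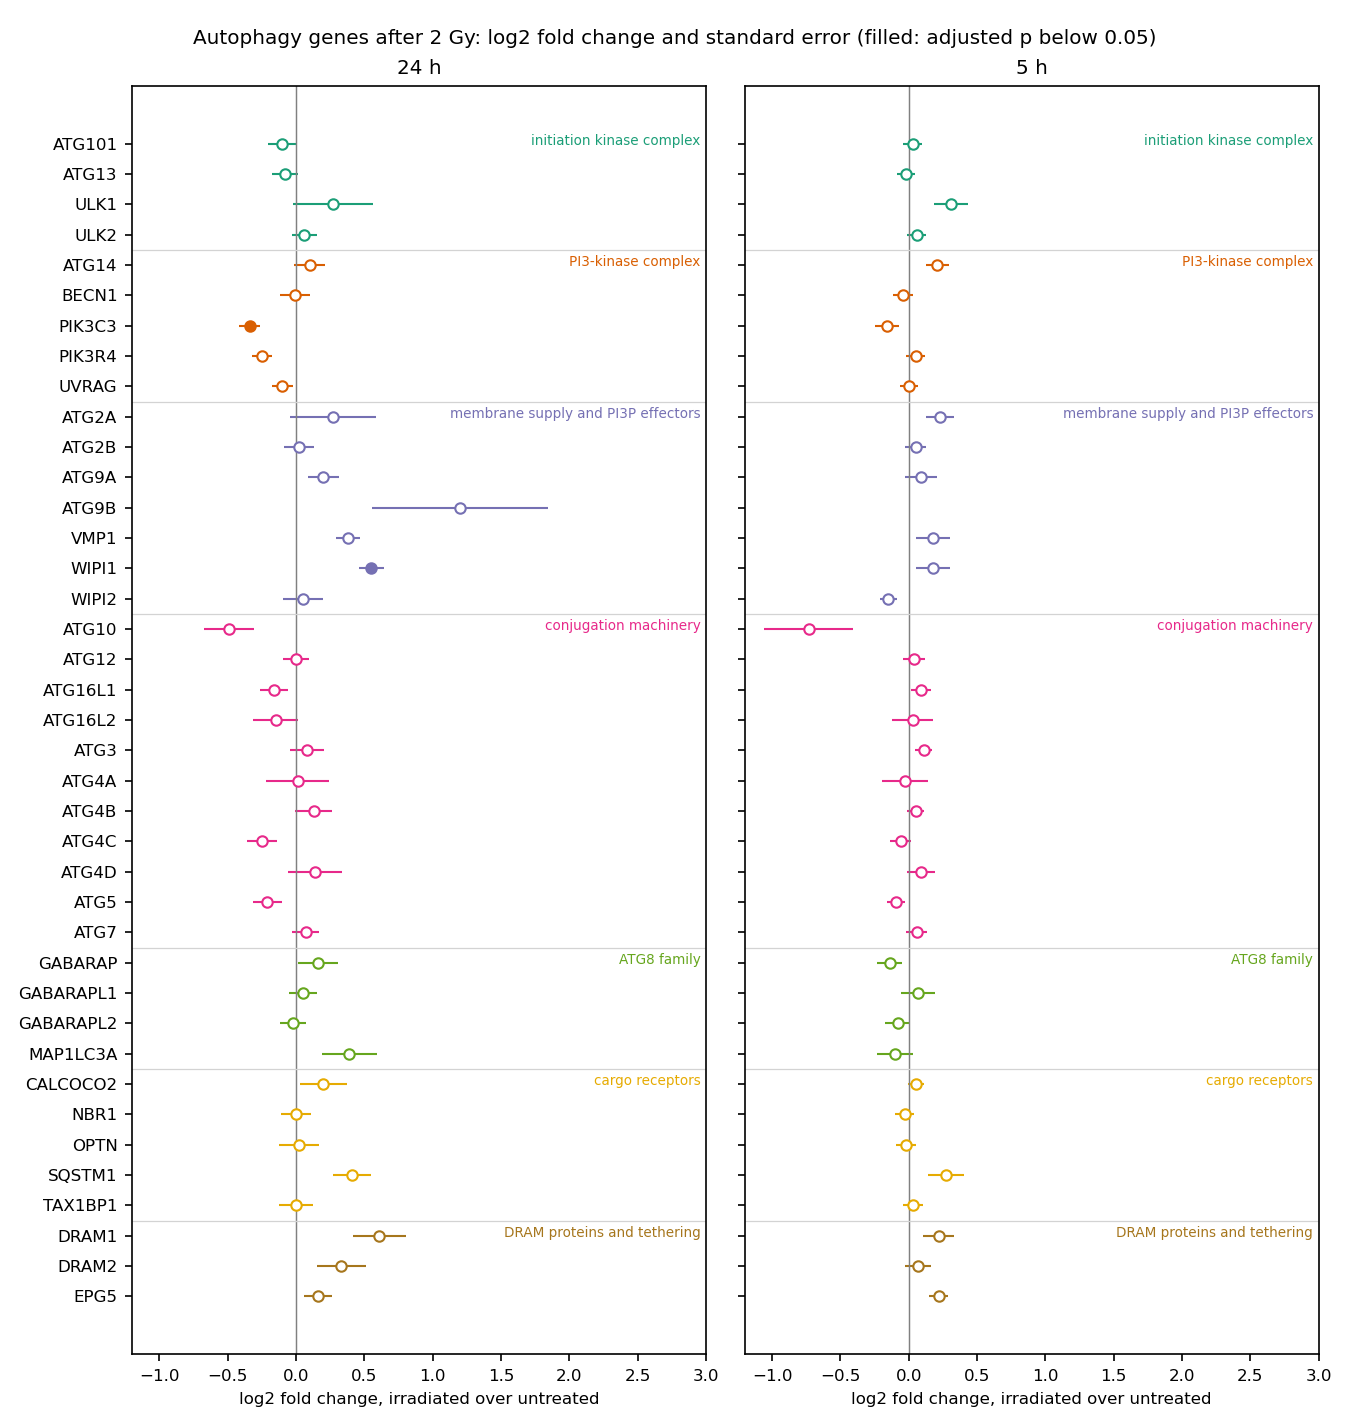
Log2 fold change of each autophagy gene, irradiated over untreated, at 24 h (left) and 5 h (right), with standard errors as bars, grouped by role; filled points have an adjusted p below 0.05. WIPI1 (0.55) and PIK3C3 (-0.34) at 24 h are the only filled points, and all 7 genes of membrane supply and PI3P binding lie to the right of 0 at 24 h (ATG2B, WIPI2 and ATG2A not so with some single libraries left out, and ATG2B at -0.01 without a filter on low counts); ATG9B was not tested at 5 h.

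At 5 h the question was what irradiation had changed early. No autophagy gene was called among 38 tested by edgeR, against 1.6% of all 12969 genes, and DESeq2 also called 0, against 3.42%. ATG9B fell below the filter on low counts. At an unadjusted p below 0.05 there were 4 genes, with ULK1, ATG14 and EPG5 higher and WIPI2 lower, against 12.9% of all genes (6.22% higher and 6.67% lower). Groups did not overlap for 7 of 38 genes, 4 higher and 3 lower, and for 18.7% of all genes (10.2% and 8.43%). Neutrophil markers summed to 215 to 237 CPM in irradiated and 143 to 172 CPM in untreated libraries at 5 h. Of the 7 markers 4 had a positive and 3 a negative log2 fold change. S100A8 (means of 74 and 50.8 CPM in irradiated and untreated libraries) and S100A9 (104 and 58.1 CPM) were higher. AQP9 (27.8 and 32.8 CPM) and MPO (0.818 and 1.66 CPM) were lower. The part of these markers in these results was not tested. The median log2 fold change was 0.05 over the autophagy genes and 0 over all genes, and 37 of 38 genes (97.4%, against 91.6% of all genes) lay within 0.5 of 0, the exception being ATG10 at -0.73 ± 0.326 (edgeR adjusted p = 0.40). ATG10 had only 0.601, 0.709 and 0.522 CPM in irradiated and 0.858, 1.41 and 0.715 CPM in untreated libraries.

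At 5 h libraries with the same replicate number deviated together, so the numbers were also fitted as a block of pairs. With the replicate block, 8 of 38 autophagy genes passed, or 21.1%, and 20.5% of all genes did, 10.6% higher and 9.92% lower. Of the 8, 7 were higher and 1, WIPI2, was lower. In the same fit 9 of 9 B cell, 6 of 8 T cell and 4 of 6 NK and cytotoxic cell markers were lower, and 3 of 5 monocyte and macrophage markers were higher and 1 lower, and their part in these calls was not tested. SQSTM1 had 1550, 1610 and 1950 CPM in irradiated and 1330, 1230 and 1640 CPM in untreated libraries at 5 h. The groups overlapped, yet each irradiated library exceeded the untreated library of its number, and the log2 fold change was 0.27 ± 0.132 without the block (edgeR adjusted p = 0.45) and 0.27 ± 0.039 with it (adjusted p = 0.00011). EPG5 had 247, 233 and 250 CPM in irradiated and 220, 197 and 204 CPM in untreated libraries, without overlap (0.22, edgeR adjusted p = 0.0015 with the block and 0.23 without). DRAM1 had 166, 142 and 160 CPM in irradiated and 141, 111 and 147 CPM in untreated libraries, higher in each pair (0.22, edgeR adjusted p = 0.0027 with the block and 0.48 without).

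ULK1 at 5 h had 21.5, 20.8 and 18.2 CPM in irradiated and 18.9, 15.6 and 14.0 CPM in untreated libraries, higher in each pair (log2 fold change 0.31, edgeR adjusted p = 0.0056 with the block and 0.35 without). VMP1 had 398, 395 and 451 CPM in irradiated and 367, 301 and 424 CPM in untreated libraries, again higher in each pair (0.19 with the block, edgeR adjusted p = 0.013, and 0.62 without). The remaining calls with the block were ATG2A (0.23, adjusted p = 0.0029), ATG14 (0.21, adjusted p = 0.047) and WIPI2 (-0.15, adjusted p = 0.031), all in edgeR. ATG14 had 19.8, 20.7 and 19.6 CPM in irradiated and 18.7, 16.5 and 16.4 CPM in untreated libraries, and WIPI2 had 87.9, 87.8 and 85.3 CPM in irradiated and 101, 91.5 and 94.8 CPM in untreated libraries, neither with any overlap. WIPI1, called at 24 h, had 25.6, 25.1 and 30.0 CPM in irradiated and 24.2, 20 and 26.6 CPM in untreated libraries at 5 h (0.18 ± 0.123, edgeR adjusted p = 0.62, and 0.059 with the block). PIK3C3 had 30.4, 28.9 and 32.9 CPM in irradiated and 32.0, 34.2 and 36.4 CPM in untreated libraries (-0.16 ± 0.086, edgeR adjusted p = 0.48, and 0.062 with the block). For both genes the groups overlapped at 5 h and every pair pointed the way of the 24 h call.

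A further 10 named genes, uncalled in both fits at 5 h, had log2 fold changes between -0.09 and 0.09. ATG13 ranged over 44.9 to 48.9 CPM in irradiated and 45.2 to 49.6 CPM in untreated libraries (log2 fold change -0.02 ± 0.069), BECN1 over 104 to 121 and 110 to 116 CPM (-0.04 ± 0.073), ATG9A over 67.7 to 85.2 and 63.2 to 80.3 CPM (0.09 ± 0.114), and ATG2B over 169 to 195 and 168 to 187 CPM (0.05 ± 0.077), with irradiated values first. In the conjugation machinery ATG5 ranged over 72.9 to 81.2 CPM in irradiated and 78.3 to 84.3 CPM in untreated libraries (-0.09 ± 0.066), ATG7 over 33.8 to 35.9 and 30.5 to 35.1 CPM (0.06 ± 0.077), ATG12 over 21.3 to 23.9 and 20.4 to 22.2 CPM (0.04 ± 0.083) and ATG16L1 over 65.9 to 71.6 and 58.8 to 67.8 CPM (0.09 ± 0.073). GABARAPL1 ranged over 12.9 to 16.4 CPM in irradiated and 12.3 to 13.9 CPM in untreated libraries (0.07 ± 0.123), and OPTN over 590 to 618 and 563 to 638 CPM (-0.02 ± 0.073). The groups overlapped for each of these 10 genes.

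Whether the irradiation effect differed between 24 h and 5 h was tested with an interaction term over all 12 libraries. No autophagy gene of 39 passed by edgeR, by DESeq2 or with the replicate block, against 0.882% of all 15200 genes by edgeR (0.125% higher and 0.757% lower), 2.38% by DESeq2 and 1.76% with the block (0.454% higher and 1.31% lower). At an unadjusted p below 0.05 there were 2 genes, 1 higher and 1 lower, against 9.95% of all (2.84% and 7.11%). For PIK3R4 the effect at 24 h minus that at 5 h was -0.31 ± 0.101 on the log2 scale (adjusted p = 0.25 by edgeR and 0.11 by DESeq2), with irradiated and untreated means of 61.2 ± 1.36 and 72.2 ± 1.76 CPM at 24 h and 86.4 ± 3.82 and 82.5 ± 3.01 CPM at 5 h (SD, n = 3 each). For WIPI1 it was 0.37 ± 0.167 (adjusted p = 0.48 by edgeR and 0.36 by DESeq2). WIPI1 was called at 24 h and not at 5 h, and a difference between the times was not shown.

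**Figure D3:**
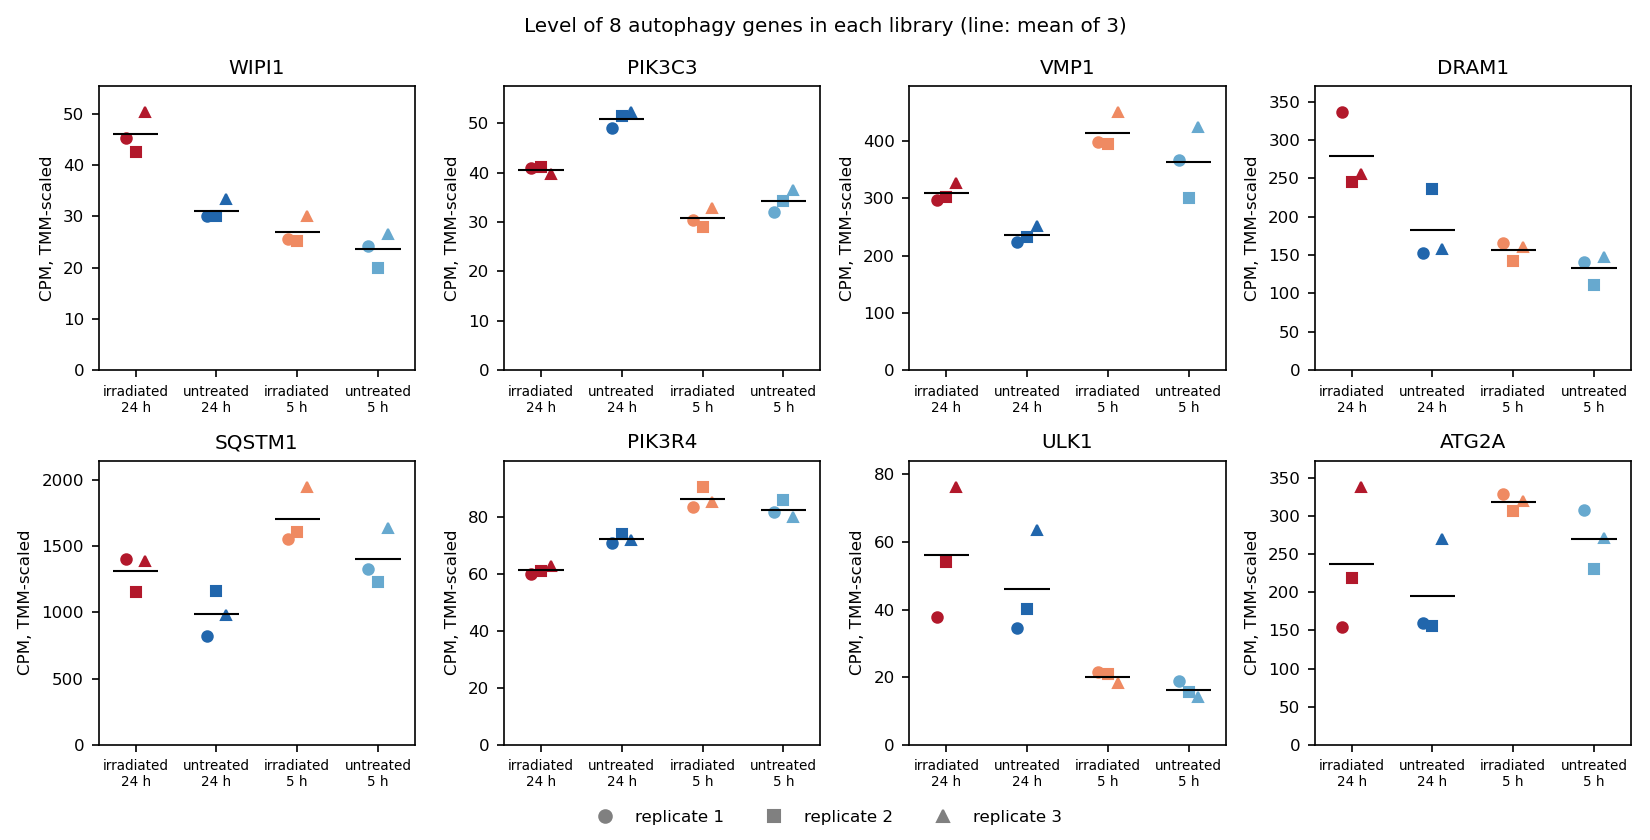
Level of 8 autophagy genes in each library, in TMM-scaled CPM on axes from 0, with markers for replicate numbers and a line for the mean of 3 libraries. WIPI1, VMP1, DRAM1, PIK3C3 and PIK3R4 separate irradiated from untreated libraries at 24 h, as do 26.2% of all genes tested. ULK1 and ATG2A are highest in replicate 3 of both 24 h groups (76.4 and 63.4 CPM, and 339 and 270 CPM).

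Other genes of the pathway were read from lists of 20 genes of nutrient and energy control, 7 transcription factors and folliculin partners, 9 PI3P regulators and effectors, 16 genes of fusion with lysosomes, and 16 further cargo and mitophagy genes with a row. At 24 h they gave 2 higher and 1 lower, 0, 1 lower, 0, and 1 higher, in that order of lists, in all 5 of 68 genes or 7.35%, against 6.73% of all genes. The call among PI3P regulators was Rubicon (KIAA0226), which in mammals restrains the lipid kinase complex. Rubicon had 16.9, 19.7 and 22.7 CPM in irradiated and 46.1, 40.3 and 50.9 CPM in untreated libraries, with all irradiated values below all untreated ones (log2 fold change -1.22 ± 0.138, edgeR adjusted p = 0.0039, and 0.0068 to 0.027 with any 1 library left out). At 5 h Rubicon had 29.3, 35.3 and 32.0 CPM in irradiated and 42.1, 50.8 and 42.2 CPM in untreated libraries (-0.50 ± 0.107, edgeR adjusted p = 0.078, 9.4e-06 with the replicate block, and 0.0055 by DESeq2). The B cell marker sums given above were also lower in irradiated libraries at both times, and their part in the Rubicon values was not tested.

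SESN2, a stress-induced inhibitor of the growth kinase MTOR, was the only call at 5 h in the 5 lists by edgeR without the block, in 67 genes tested (1.49%, against 1.6% of all genes). With the block 14 of the 67 were called, 8 higher and 6 lower (20.9%, against 20.5% of all genes). DESeq2 called SESN2, Rubicon and DDIT4, a stress-induced inhibitor of MTOR signalling (log2 fold change 0.66 ± 0.188, adjusted p = 0.19 by edgeR and 0.02 by DESeq2), which was named after its values were seen. SESN2 had 35.7, 33.2 and 29.6 CPM in irradiated and 11.4, 9.12 and 11.6 CPM in untreated libraries at 5 h (log2 fold change 1.61 ± 0.117, edgeR adjusted p = 0.00047), and 20.5, 27.8 and 40.4 CPM in irradiated and 11.8, 10.2 and 16.4 CPM in untreated libraries at 24 h (1.19 ± 0.270, edgeR adjusted p = 0.046). At 24 h its call was lost without irradiated replicate 2 or 3 or untreated replicate 1 or 2 (adjusted p up to 0.14). The other calls at 24 h were PRKAA2, a catalytic subunit of the energy sensor AMPK (0.70 ± 0.140, edgeR adjusted p = 0.031), WDFY3, a scaffold for clearing protein aggregates (0.59 ± 0.091, edgeR adjusted p = 0.013), and RRAGB, a GTPase that signals amino acids to MTOR (-0.46 ± 0.099, edgeR adjusted p = 0.039). The call of each was lost with some single library left out, in irradiated replicate 1, 2 or 3 or untreated replicate 1 or 3 for PRKAA2 (adjusted p up to 0.12), irradiated replicate 2 or 3 or untreated replicate 1 or 3 for WDFY3 (up to 0.079), and any 1 of 6 for RRAGB (0.054 to 0.13). RRAGB also lost it with the replicate block (0.074), and PRKAA2 in one fit over 12 libraries (0.083).

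More autophagy genes were called between times than between treatments. Between untreated cells at 24 h and at 5 h, 23 of 38 genes differed by edgeR, or 60.5%, against 63.1% of all 13445 genes. Of these, 14 were higher and 9 lower at 24 h, against 32.6% of all genes higher and 30.5% lower. DESeq2 called 11 higher and 11 lower (62.4% of all genes, 30% higher and 32.4% lower), edgeR without a filter 10 and 10, and edgeR on all 12 libraries 12 and 11, and edgeR with the block 11 and 10 (60.3% of all genes, 30.9% and 29.4%). Groups did not overlap for 25 of 38 genes, 12 higher and 13 lower, and for 68.6% of all genes (34.9% and 33.7%). The median log2 fold change was 0.04 over the autophagy genes and 0.11 over all genes, and that of all genes was 0.26 without a filter and 0.21 in the fit of 12 libraries. A log2 fold change within 0.5 of 0 was found for 63.2% of the autophagy genes and 40.9% of all genes. TMM factors differed between the times, at 1.12 to 1.29 in untreated libraries at 24 h and 0.861 to 0.887 at 5 h.

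The 5 largest rises were of ATG10, ULK1, ATG4A, UVRAG and NBR1. ULK1 had 34.6, 40.3 and 63.4 CPM in untreated libraries at 24 h, against 18.9, 15.6 and 14.0 CPM at 5 h, a log2 fold change of 1.55 ± 0.213 (edgeR adjusted p = 0.00032). Replicate 3 at 24 h was the highest library, and the lowest at 24 h still exceeded all at 5 h. ATG10 had 3.78, 4.42 and 4.09 CPM at 24 h, against 0.858, 1.41 and 0.715 CPM at 5 h (2.07 ± 0.271, edgeR adjusted p = 0.00025). ATG4A, a protease that processes GABARAP-type ATG8 proteins, had 10.9, 13.6 and 11.7 CPM at 24 h, against 5.07, 7.11 and 6.27 CPM at 5 h (1.01 ± 0.158, edgeR adjusted p = 0.00066). For these 3 genes every library at 24 h lay above every library at 5 h. UVRAG had 65.2, 72.0 and 69.4 CPM at 24 h, against 37.2, 39.5 and 38.2 CPM at 5 h (0.89 ± 0.079, edgeR adjusted p = 3.2e-05). NBR1, a receptor for ubiquitinated cargo, had 283, 342 and 289 CPM at 24 h, against 190, 199 and 186 CPM at 5 h (0.71 ± 0.099, edgeR adjusted p = 0.00035).

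The 5 largest falls were of ATG4B, DRAM2, ATG16L1, VMP1 and OPTN. ATG4B, the main ATG4 protease for LC3 in mammals, had 37.8, 38.6 and 46.7 CPM in untreated libraries at 24 h, against 85.1, 81.1 and 76.8 CPM at 5 h (log2 fold change -0.94 ± 0.098, edgeR adjusted p = 7.3e-05). DRAM2 had 164, 222 and 163 CPM at 24 h, against 325, 268 and 314 CPM at 5 h (-0.68 ± 0.135, edgeR adjusted p = 0.0023), and ATG16L1 had 37.7, 37.8 and 45.1 CPM at 24 h, against 67.8, 58.8 and 65.3 CPM at 5 h (-0.63 ± 0.096, edgeR adjusted p = 0.00058). For these genes every library at 24 h lay below every library at 5 h. VMP1 had 224, 233 and 251 CPM at 24 h, against 367, 301 and 424 CPM at 5 h (-0.58 ± 0.124, edgeR adjusted p = 0.0035), and OPTN 369, 468 and 380 CPM at 24 h, against 637, 563 and 638 CPM at 5 h (-0.55 ± 0.113, edgeR adjusted p = 0.0027). The calls of these 10 genes held with any 1 library left out.

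By role, 4 of 5 cargo receptors fell with time and NBR1 rose: beside OPTN these were SQSTM1 (log2 fold change -0.47 ± 0.148, edgeR adjusted p = 0.022), TAX1BP1 (-0.40 ± 0.096, edgeR adjusted p = 0.0065) and CALCOCO2 (-0.34 ± 0.122, edgeR adjusted p = 0.038). SQSTM1 lost its call without replicate 3 of untreated cells at 5 h or replicate 1 at 24 h (adjusted p up to 0.079). For CALCOCO2 the adjusted p reached up to 0.11, past the threshold, on leaving out a 5 h library or replicate 1 or 3 at 24 h, and the stricter filter also ended the call. In the lipid kinase complex PIK3C3 (0.61 ± 0.085, edgeR adjusted p = 0.00033) and UVRAG rose, and BECN1 (-0.23 ± 0.091, edgeR adjusted p = 0.055), ATG14 (0.27 ± 0.113, edgeR adjusted p = 0.065) and PIK3R4 (-0.15 ± 0.079, edgeR adjusted p = 0.12) were not called. BECN1 was called lower by DESeq2 (0.036), with DESeq2's size factors (0.039), without a filter (0.043) and in one fit over 12 libraries (0.041). PIK3R4 was called lower in that one fit (0.034), and ATG14 higher with the stricter filter (0.031). Of 11 conjugation genes 6 rose and 3 fell, against 32.6% of all genes higher and 30.5% lower, and with the block 4 and 3, since ATG4D (0.077) and ATG7 (0.092) were no longer called. In the ATG8 family 1 of 4, GABARAPL1, rose (0.54 ± 0.102, edgeR adjusted p = 0.0019). DRAM1 rose (0.50 ± 0.172, edgeR adjusted p = 0.033), a call lost without any 1 library at 5 h or replicate 2 at 24 h (adjusted p up to 0.15). That call was also lost with DESeq2's size factors, with no filter and with the replicate block. WIPI1 rose (0.44 ± 0.114, edgeR adjusted p = 0.0091). ATG13 (0.28), ATG4D (0.33) and ATG7 (0.25) were called higher by edgeR at an adjusted p of 0.016, 0.048 and 0.049, and DESeq2 did not call them (0.064, 0.11 and 0.18); ATG13 and ATG7 lost the call without any 1 of 6 libraries, and ATG4D without any 1 of 5. Marker sums also differed with time, at 30.4 to 47.7 CPM at 24 h and 143 to 172 CPM at 5 h for neutrophil markers and 668 to 719 CPM at 24 h and 359 to 553 CPM at 5 h for T cell markers, and their part in these results was not tested.

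**Figure D4:**
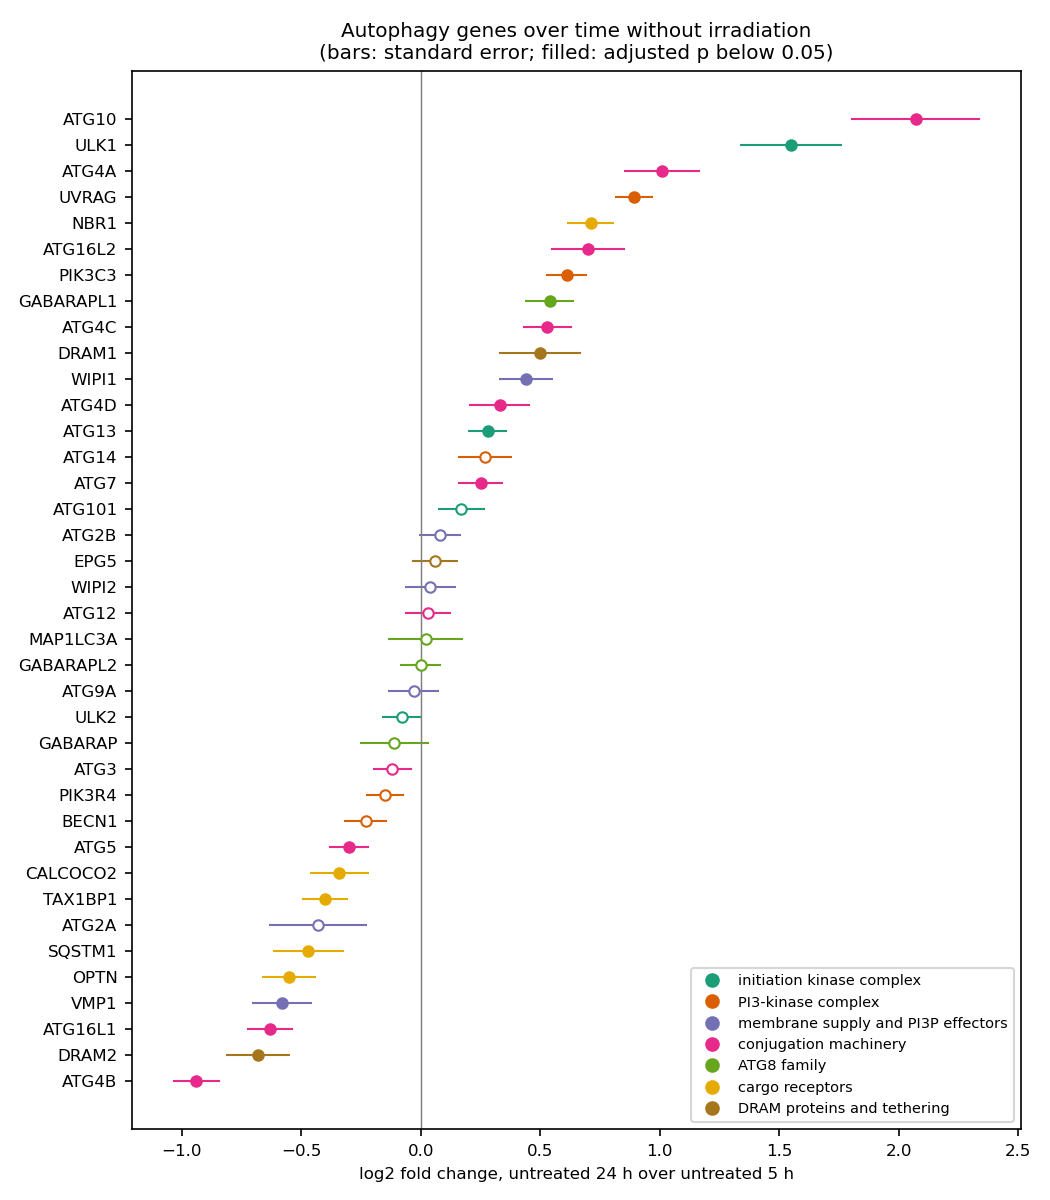
Log2 fold change of 38 autophagy genes, untreated cells at 24 h over untreated cells at 5 h, sorted by size, with standard errors as bars and colours for roles; filled points have an adjusted p below 0.05. The values run from -0.94 for ATG4B to 2.07 for ATG10, and 4 of the 5 cargo receptors lie left of 0.

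Ratios between related genes need no scaling between libraries, so they were computed per library from counts divided by exon length. The 10 pairs were chosen after values had been seen, and the ratios are a description with no test. ULK1 stood at 0.976, 1.17 and 1.73 times ULK2 in untreated libraries at 24 h, against 0.479, 0.395 and 0.378 times at 5 h. ATG4A stood at 0.284, 0.347 and 0.246 times ATG4B at 24 h, against 0.0585, 0.0862 and 0.0803 times at 5 h. ATG16L2 stood at 0.695, 0.678 and 0.755 times ATG16L1 at 24 h, against 0.315, 0.308 and 0.231 times at 5 h. In each of these pairs all ratios at 24 h exceeded all at 5 h. The same held in untreated libraries for ATG4C and ATG4D to ATG4B, DRAM1 to DRAM2, GABARAPL1 to GABARAPL2 and NBR1 to SQSTM1. Only ATG2A to ATG2B and WIPI1 to WIPI2 overlapped between the times. Levels of single genes did not overlap between the times for 68.6% of all genes.

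Between treatments, 3 of those pairs had ratios that did not overlap at 24 h. Levels of single genes did not overlap for 26.2% of all genes tested at 24 h and 18.7% at 5 h. The share over other pairs of genes was not computed. DRAM1 stood at 1.32, 1.34 and 1.42 times DRAM2 in irradiated libraries and 1.04, 1.19 and 1.08 times in untreated libraries at 24 h, and at 0.548, 0.545 and 0.548 times in irradiated and 0.483, 0.463 and 0.524 times in untreated libraries at 5 h. The groups did not overlap at either time. WIPI1 stood at 0.381, 0.484 and 0.527 times WIPI2 in irradiated and 0.355, 0.265 and 0.363 times in untreated libraries at 24 h, and at 0.290, 0.285 and 0.350 times in irradiated and 0.238, 0.217 and 0.279 times in untreated libraries at 5 h, also without overlap. NBR1 stood at 0.119, 0.131 and 0.107 times SQSTM1 in irradiated and 0.176, 0.150 and 0.150 times in untreated libraries at 24 h, without overlap, and the groups overlapped at 5 h. Only at 5 h did ATG4C to ATG4B separate, at 0.211 to 0.218 in irradiated and 0.225 to 0.239 in untreated libraries.

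**Figure D5:**
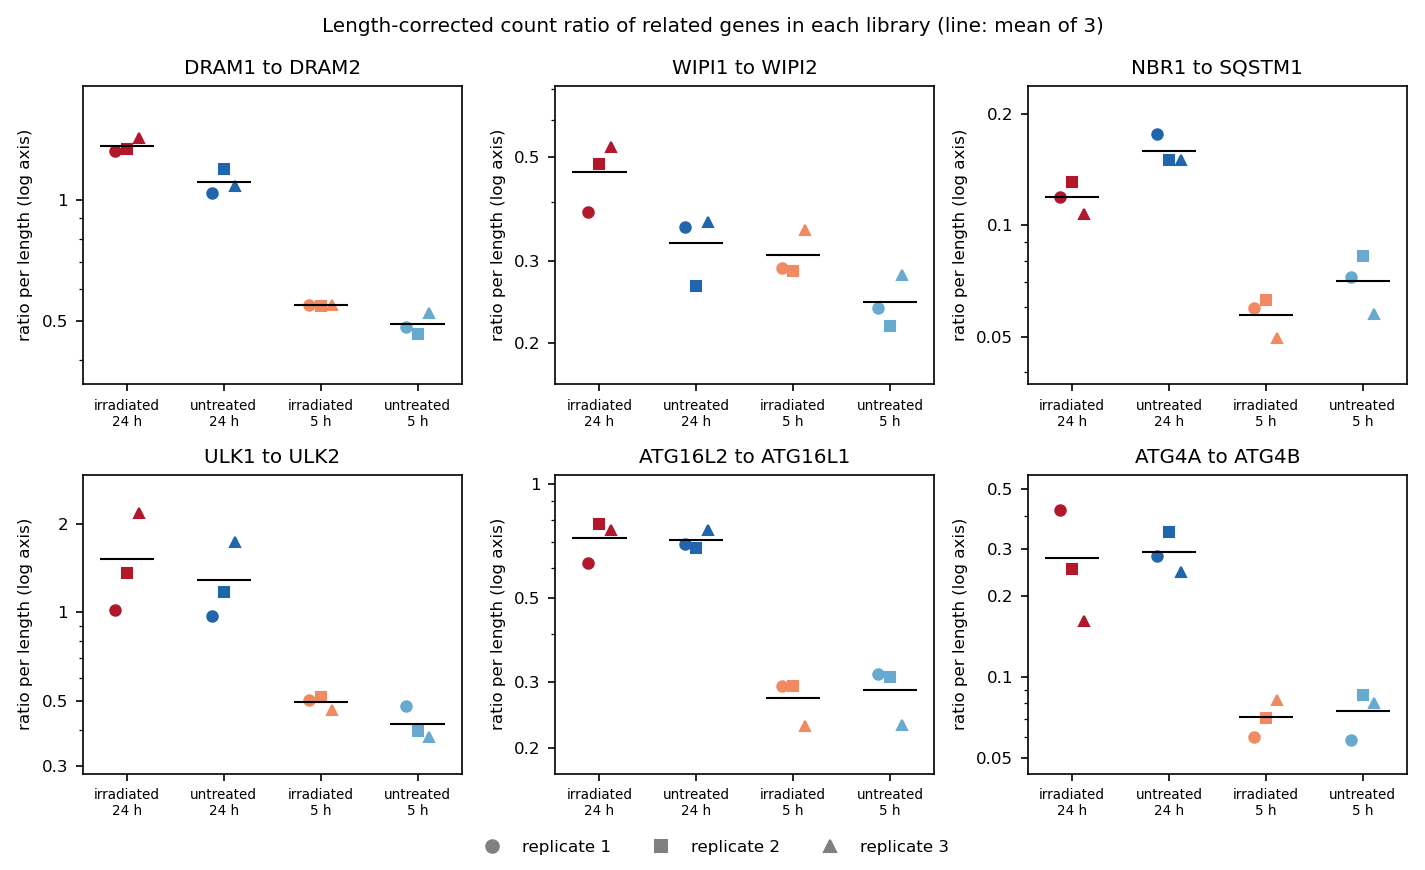
Ratio of length-corrected counts for 6 pairs of related autophagy genes in each library, on log axes, with markers for replicate numbers and a line for the mean of 3. DRAM1 to DRAM2 is 1.32 to 1.42 in irradiated and 1.04 to 1.19 in untreated libraries at 24 h. All pairs shown but WIPI1 to WIPI2 set the 24 h libraries above the 5 h libraries in both treatments.

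Replicates varied more at 24 h than at 5 h. The coefficient of variation of the CPM had a median over the 39 genes of 10.6% in both 24 h groups, 5.39% in irradiated and 6.98% in untreated cells at 5 h. It exceeded 20% for 7 genes in irradiated and 4 genes in untreated cells at 24 h, and for 1 and 2 genes in irradiated and untreated cells at 5 h. By position the genes were scattered over the assembly, with 4 of them (BECN1, CALCOCO2, NBR1 and VMP1) on scaffold 31 and no more than 2 on any other. Those on scaffold 31 did not move together with time, since NBR1 rose, VMP1 and CALCOCO2 fell and BECN1 was not called.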

How the data were processed

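RNA from blood was sequenced in 12 libraries made, per the labels' protocols, with a stranded ribosomal-depletion kit. The authors deposited 1 table per time with raw counts per gene and FPKM values, per the file headers on the L_africana_Jul_2009 build. The sources used here name no aligner, counting program or strand setting. The 12 columns of regularized log values were not used. Coordinates are printed from 1: in 1449 rows the end minus the start equals the exon length. Of the 39 exon lengths, 34 are multiples of 3, so most are coding lengths, and FPKM rests on them.

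Counts were tested with edgeR 4.0.16 in R 4.3.3 (TMM scaling, filterByExpr, quasi-likelihood F test, Benjamini-Hochberg over all genes tested, threshold 0.05), each comparison on its own 6 libraries and the interaction on 12. CPM levels use TMM factors over all 12 libraries. DESeq2 1.42.0, other filters, a replicate block, one fit of all libraries and leaving out each library were alternatives. Same-numbered irradiated and untreated libraries correlated in their deviations from group means at 5 h (0.37, 0.33 and 0.57 over 12969 genes), so the numbers were read as pairs there. Scripts were tested on simulated counts. The genes, lists and tests were chosen with earlier results of these data known. Every autophagy gene may be named. Full values go to those called after irradiation and a given set, and for time to the 5 largest rises and falls called at a mean of at least 1 CPM. From other lists up to 3 called genes are named.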

Additional observations from a re-analysis of the deposited data

How the results depend on the processing

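Among the autophagy genes given full values by the rule above, no called value reversed its sign under any alternative run. Other genes were not checked in this way. For autophagy genes at 24 h after irradiation, the 2 calls became 5 by DESeq2 (3 higher and 2 lower), 3 in one fit of 12 libraries (2 higher and 1 lower), 2 higher and 0 lower with DESeq2's size factors and with the stricter filter alike, 1 without a filter, 1 with the replicate block, 0 to 1 with a library left out, and 0 without both 24 h libraries numbered 3, an alternative chosen after seeing the data. Over all genes the 968 calls became 1715 by DESeq2, 1670 in one fit of 12 libraries, 293 to 1061 with a library left out and 220 without both libraries numbered 3. At 5 h the 0 calls became 8 with the replicate block, and over all genes the 207 became 444 by DESeq2, 2655 with the block and 86 to 191 with a library left out. The median log2 fold change at 5 h was 0.06 in the fit of 12 libraries and 0.02 to 0.05 with a library left out. For the difference between times the 134 calls over all genes became 362 by DESeq2, 268 with the block and 76 to 168 with a library left out, and the median of autophagy genes ran from -0.05 to 0.07. For time in untreated cells the 23 calls became 17 to 21 with a library left out and 21 with the block. The cause of these shifts was not tested. WIPI1 and PIK3C3 had adjusted p of 0.14 and 0.41 without both libraries numbered 3, and with the block 0.03 and 0.12. At 24 h same-numbered libraries correlated at 0.12, -0.4 and 0.65, and untreated libraries of the same number across times at 0.16, 0.04 and -0.27, so the numbers were not read as pairs there. At 24 h irradiated replicate 1 correlated best with untreated replicate 2 (0.49) and irradiated replicate 2 with untreated replicate 1 (0.43), and no fit used that match. With 18022475 to 23805619 counts in irradiated libraries at 24 h, depth limits ATG9B and ATG10 most.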

Other observations

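At 24 h some patterns of variation inside the groups were seen both among the autophagy genes and among all genes. Of 39 genes, 19 (48.7%) were highest in irradiated replicate 1 and in untreated replicate 2, as were 31.5% of 12205 genes at 1 CPM or more in at least 3 libraries at 24 h. These 19 include DRAM1, DRAM2, SQSTM1 and all 4 other cargo receptors. The macrophage scavenger receptor CD163 had 1230, 507 and 426 CPM in irradiated and 213, 576 and 175 CPM in untreated libraries, with the same libraries on top. A further 10 genes (25.6%, against 30.6% of all) were highest in replicate 3 of both groups, among them ULK1, ATG2A, ATG4B, ATG9A, WIPI1 and VMP1. CD163 was picked from the monocyte and macrophage list after its values were seen, and its part in the autophagy genes' variation was not tested.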
